A study of Mus musculus with 2 samples.

Results

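The cells described here are the sinusoidal endothelial cells of the mouse fetal liver, the cells that line its blood sinusoids. They were chosen by their RNA: a cell had to show at least 3 of Cdh5, Kdr, Lyve1, Stab2, Cldn5, Gpr182 and Oit3, at least 5 UMIs summed over these 7 genes, and at most 9 UMIs summed over the complement genes C1qa, C1qb and C1qc, which mark macrophages. A UMI (unique molecular identifier) marks one original RNA molecule. The rule found 164 cells among 7875 that passed the quality filter, 65 of 3458 in the WT library and 99 of 4417 in the KO library. The study asked what loss of IκBα (Nfkbia), the inhibitor that holds NF-κB factors in the cytoplasm, does to fetal liver stem cells. Lineage-depleted E14.5 livers of CD1 mice were sorted for LSK cells (lineage-negative, SCA1-positive, cKIT-positive), and single-cell 3′ libraries were made from 1 pool of 2 IκBα WT embryos and 1 pool of 3 IκBα KO embryos. Sample titles speak of LT-HSCs and the cell type entries of LSK cells. The KO embryos carry a targeted, germline knockout, so every cell type lacked the gene and an effect within endothelial cells cannot be told apart from one of the surrounding tissue. Each genotype had 1 library. No test between genotypes could therefore be made, and the intervals given, all at 95%, describe counting error and leave out how embryos or libraries vary.

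Liver sinusoidal endothelial cells form a thin, fenestrated lining and clear waste molecules from the blood through scavenger receptors such as the stabilins STAB1 and STAB2 and the mannose receptor MRC1. They make coagulation factor VIII and signals for neighbouring hepatocytes and, in the fetal liver, for the blood cells that expand there. In the adult liver their identity depends on the transcription factors GATA4 and MAF.

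The IκBα gene itself gave the check of the labels. Nfkbia is a direct target of NF-κB, and the sequence before its start is printed because the gene separates the libraries. Sequences are the 250 bases before the annotated start from RefSeq (build GRCm38.p6), read along the gene, and capitals mark matches on either strand to the κB motif, GGGA and TTTCC with any 1 base between them. Nfkb2, a subunit gene, and Cxcl1, a chemokine gene, are shown beside it as members of the target list with the same motif.
Nfkbia (chr12:55492648-55492897, minus strand): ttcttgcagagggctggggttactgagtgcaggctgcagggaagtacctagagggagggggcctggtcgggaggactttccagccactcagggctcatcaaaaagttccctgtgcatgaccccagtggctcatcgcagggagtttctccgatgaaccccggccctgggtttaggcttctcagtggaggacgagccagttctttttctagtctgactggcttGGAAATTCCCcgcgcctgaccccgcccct
Nfkb2 (chr19:46305680-46305929, plus strand): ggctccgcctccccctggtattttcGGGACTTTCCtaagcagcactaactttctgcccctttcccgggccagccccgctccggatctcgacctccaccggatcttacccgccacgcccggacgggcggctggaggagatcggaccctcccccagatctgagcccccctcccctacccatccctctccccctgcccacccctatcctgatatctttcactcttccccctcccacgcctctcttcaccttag
Cxcl1 (chr5:90890995-90891244, plus strand): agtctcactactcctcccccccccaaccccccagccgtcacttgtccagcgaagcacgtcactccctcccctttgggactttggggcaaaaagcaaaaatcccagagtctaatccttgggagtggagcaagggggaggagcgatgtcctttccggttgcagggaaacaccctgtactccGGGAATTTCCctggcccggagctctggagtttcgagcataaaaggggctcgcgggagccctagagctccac
The motif was present before the start of 0.356% of 32851 promoters and, counted per gene as for the lists, of 0.414% of 27025 genes. It was present for 4 of 26 matched genes of the NF-κB pathway list, 7 of 29 matched NF-κB target genes and 0 of 20 matched sinusoidal genes. A match is a run of letters and not a shown binding site. The endothelial cells held 65 Nfkbia UMIs in 32 of 65 WT cells and 1 UMI in 1 of 99 KO cells, 42.8 CPM against 0.49 CPM, where CPM is the number of UMIs per 1000000 UMIs of the summed cells. The log2 KO/WT ratio was -6.44 (-11.77 to -3.91). Of the WT cells 32 had at least 1 UMI, against the single KO cell. In WT, the Nfkbia level of endothelial cells was close to that of cells meeting the macrophage rule (38.3 CPM) and above those meeting the stem rule (19.8 CPM) or the erythroid rule (7.91 CPM). Nfkb2, which has the motif, had 21 WT and 20 KO UMIs, and Cxcl1 had 1 and 12.

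Deposited barcodes numbered 3840 in WT and 4928 in KO, and 7 barcode sequences occurred in both libraries, none of them a member. Filtered WT cells had a median of 28065 UMIs and KO cells 19560, whereas endothelial cells were shallower and closer in depth, with medians of 14782 UMIs (2358 to 117811) and 13715 UMIs (2934 to 96232). Endothelial cells together held 1520587 UMIs in WT and 2035357 in KO. UMIs of 4 Y-linked genes occurred in 1 WT and 16 KO endothelial cells, so the share of male cells differed between the pools along with the genotype.

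Most members lay far inside the rule. All 7 rule genes were seen in 57 of 65 WT and 78 of 99 KO cells, and the summed rule UMIs per cell had a median of 68 in WT (8 to 159) and 48 in KO (5 to 135). Just inside the threshold were 2 cells with 5 rule UMIs, and just outside were 1 cell with 3 or more rule genes and 4 UMIs and 4 such cells with 3 UMIs. Few cells therefore lay near the cut. A further 11 WT and 7 KO cells met the endothelial part of the rule but had more than 9 C1q UMIs and were left out.

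**Figure D1:**
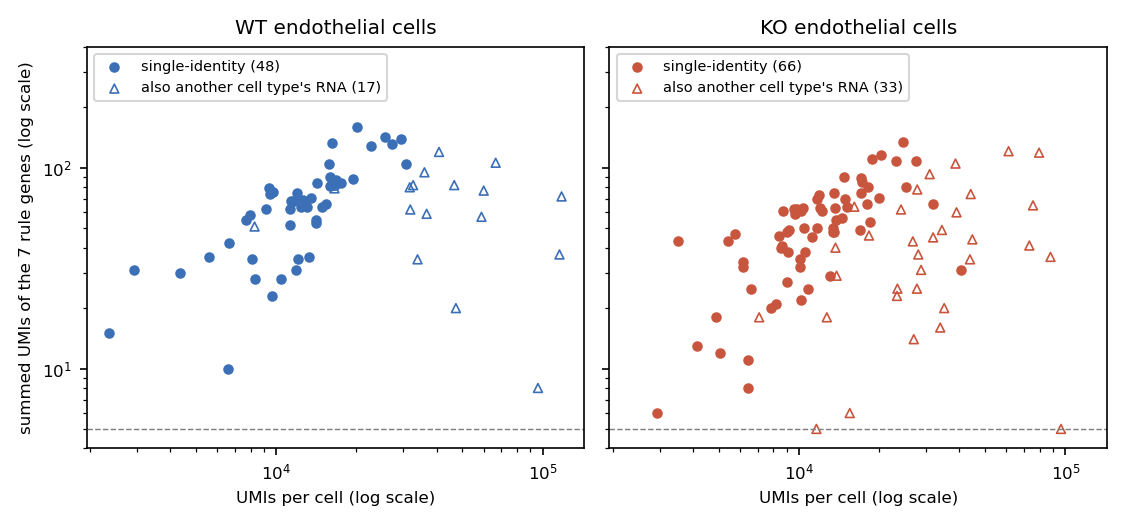
Each point is an endothelial cell, with its UMIs on the x axis and the summed UMIs of the 7 rule genes on the y axis (both log scales), WT left and KO right; the dashed line is the minimum of 5. Filled circles are the 48 WT and 66 KO cells without another cell type's RNA, and open triangles, mostly further to the right, are the 17 WT and 33 KO cells that carried some.

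Part of the members also carried RNA of another cell type. Hepatocyte genes made up 1% or more of the UMIs in 5 WT and 9 KO cells, 9 and 12 cells met the erythroid rule, 2 and 4 the megakaryocyte rule, 6 and 8 had a UMI of the pan-leukocyte gene Ptprc, and 4 and 13 had at least 5 UMIs of the neutrophil granule genes Mpo, Prtn3, Elane and Ctsg. Together these were 17 of 65 WT cells (26.2%, 16.0 to 38.5) and 33 of 99 KO cells (33.3%, 24.2 to 43.5). They were deeper, with medians of 40831 and 28695 UMIs, against 12464 and 10979 for the others, and the doublet caller Scrublet marked 11 of the 17 and 16 of the 33, against 0 of 48 and 2 of 66 of the others. The 48 WT and 66 KO cells with none of these are called single-identity cells, a set defined after the data had been seen, and values over them are given beside the KO/WT ratios and, for levels, for each gene group. The 17 mixed WT cells held 877476 of the 1520587 WT UMIs and the 33 mixed KO cells 1195355 of 2035357, so that levels over all endothelial cells are below those of single-identity cells for most endothelial genes.

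The share of endothelial cells among filtered cells was 1.88% (1.45 to 2.39) in WT and 2.24% (1.82 to 2.72) in KO. The difference was 0.36 percentage points (-0.30 to 1.00), which counting error alone covers. For single-identity cells it was 0.11 points (-0.45 to 0.65). The shares are set by a sort for cKIT and SCA1, and by which endothelial cells passed it.

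The 7 rule genes chose the cells, and their levels are given as a description. Lyve1, a hyaluronan receptor, was the highest with 951 CPM in WT and 744 CPM in KO. The orphan receptor gene Gpr182 had 431 and 344 CPM and Kdr, the main VEGF receptor, 417 and 363 CPM. Cldn5, a tight junction gene, had 299 and 298 CPM, and Cdh5, which encodes VE-cadherin, had 375 and 407 UMIs in 64 and 91 cells. Stab2 had 281 and 244 CPM and Oit3 307 and 271 CPM. Summed over the 7 genes the level was 2932 and 2465 CPM, and 5187 and 4198 CPM in single-identity cells. Single cells varied widely: per cell, Lyve1 ran from 0 over a median of 20 to 65 UMIs in WT and from 0 over 14 to 49 UMIs in KO.

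Endothelial genes outside the rule were high in the same cells. Of 30 pan-endothelial genes, 25 were at least 8-fold above all other filtered cells in both libraries, which held for 538 (7.68%) of the 7009 genes with 50 UMIs or more. The 538 include the 7 rule genes and 15 of 16 hepatocyte genes. Pecam1, an adhesion receptor of endothelial junctions, had 113 CPM in WT and 113 CPM in KO against 6.91 CPM in the other WT cells. Eng, a co-receptor of BMP9 signalling, had 269 and 299 CPM, and Egfl7, a secreted vascular factor that blood cells also read, 479 and 498 CPM against 174 CPM in the other WT cells. The VEGF receptor gene Flt1 had 189 and 202 CPM and the angiopoietin receptor gene Tek 75.6 and 76.2 CPM. The 30 genes summed to 4174 and 3877 CPM, and to 7319 and 6582 CPM in single-identity cells.

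Of 24 sinusoidal genes, 20 reached 50 UMIs and 15 were 8-fold above the other cells in both libraries. By contrast Wnt2, Ntn4 and Cyp4b1 of this list stayed below 20 UMIs over both libraries. Ctsl, a lysosomal protease, had 617 CPM in WT and 634 CPM in KO, and Ehd3, a membrane recycling protein typical of these cells, had 573 and 360 CPM. Maf had 482 and 366 CPM and Gata4 63.8 and 39.8 CPM. The scavenger receptor genes Stab1 (193 and 186 CPM) and Mrc1 (184 and 169 CPM) were also found in macrophage-rule cells, which had 101 CPM of Stab1 and 141 CPM of Mrc1 in WT. F8, the factor VIII gene, had 48.0 and 29.5 CPM. The 24 genes summed to 3513 and 2939 CPM, and to 6053 and 4818 CPM in single-identity cells. These sinusoidal genes lie outside the rule. The comparison was with the other filtered cells and not with other endothelium, so it does not separate sinusoidal cells from other vascular beds.

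Genes of other vascular beds were found in these cells too. Of the lymphatic genes with 50 UMIs or more, 3 of 4 were 8-fold above the other cells in both libraries, of the venous and portal genes 5 of 7, and of the arterial genes 4 of 5. Among the 8 lymphatic genes, Flt4 (96.0 and 88.4 CPM) and the SOX factor gene Sox18 (103 and 93.3 CPM) are also used by blood vessels. Prox1, the transcription factor of lymphatic identity that hepatocytes also express, had 22 and 37 UMIs, of which 3 and 9 lay in single-identity cells. Reln had 32 and 32 UMIs, of which 1 and 0 lay there, and Mmrn1 had 11 and 20. The remaining lymphatic genes included Pdpn and Ccl21a, with 0 UMIs in both libraries. Nr2f2, the transcription factor of venous identity, had 166 and 155 CPM, the ephrin receptor gene Ephb4 48.7 and 48.1 CPM, and Wnt9b, made by adult central vein endothelium, 0 UMIs. Of the 18 arterial genes 8 reached 20 UMIs. Sox17, a transcription factor of arterial endothelium, had 61 and 104 UMIs, the Notch ligand gene Dll4 51 and 69, the ephrin gene Efnb2 48 and 56, and the gap junction gene Gja4 30 and 82. By contrast Gja5, another gap junction gene, had 2 and 6 UMIs and Hey2 had 0 in both. A count of 0 still allows 1.97 CPM in WT and 1.47 CPM in KO, the level of 3 UMIs.

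**Figure D2:**
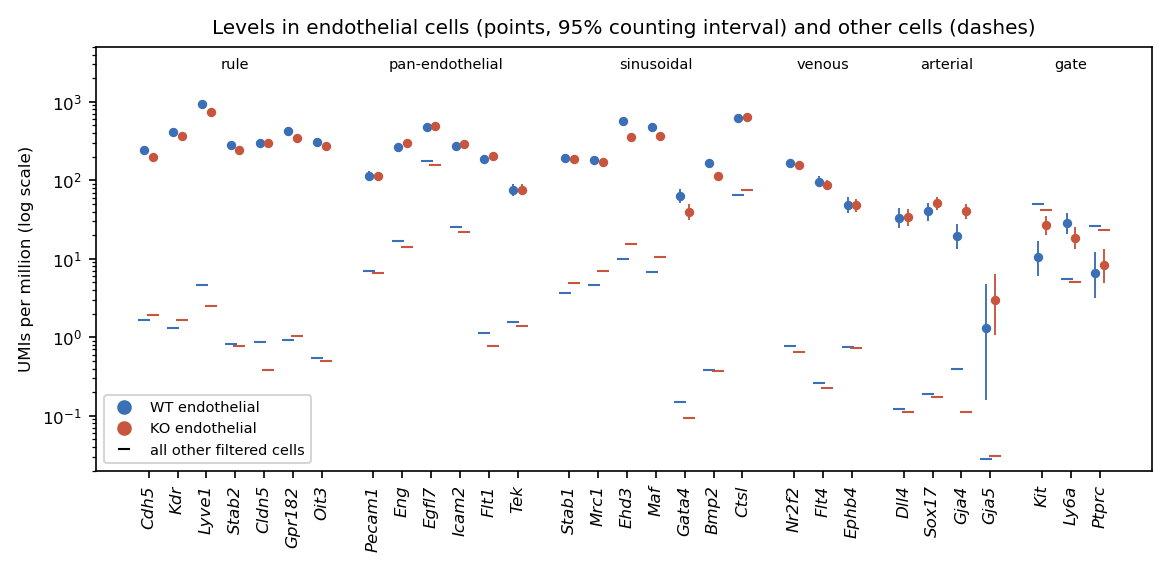
Levels of rule, pan-endothelial, sinusoidal, venous, arterial and sort-gate genes in CPM (log scale), points for endothelial cells of WT (blue) and KO (red) with 95% Poisson intervals and dashes for all other filtered cells. Endothelial genes sit above the dashes, least so Egfl7, Gja5 lies near the counting limit, and Kit and Ptprc lie below the other cells.

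Of the sort's own genes, Kit was low, and Ly6a was near the level of stem-rule cells in WT and below it in KO. Kit, the cKIT gene, had 10.5 CPM in WT and 27.0 CPM in KO against 102 and 87.7 CPM in cells meeting the stem rule, and Ly6a, the SCA1 gene, had 28.3 and 18.7 CPM against 22.8 and 28.8 CPM. Thinned to 5000 UMIs per cell, which left out 3 WT and 4 KO cells, Ly6a was seen in 12.9% of WT and 5.26% of KO endothelial cells, against 13.2% and 12.1% of stem-rule cells and 0.587% and 0.268% of erythroid-rule cells. The median depths were 14782 and 13715 UMIs for endothelial, 18940 and 14130 for stem-rule and 36805 and 26068 for erythroid-rule cells. Without thinning, 17 of 65 and 18 of 99 endothelial cells had a Ly6a UMI. The endothelial cells thus held RNA of 1 of the sort's genes above the erythroid cells in both libraries. Ptprc was seen in 0 of 62 thinned WT and 2 of 95 thinned KO cells.

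Outside the rule, 15 genes set these cells off most, ranked by the smaller of the 2 libraries' log2 ratios to all other filtered cells. Gm14226, a protein-coding gene of no known role, led with log2 ratios of 9.31 in WT and 9.97 in KO, followed by the long non-coding RNA gene Gm35533 with 9.22 and 11.03. Fabp4, a fatty acid carrier of endothelium and fat cells, was far more abundant, with 1091 UMIs over 54 of 65 WT and 1623 UMIs over 84 of 99 KO cells. The other cells held 135 and 128 Fabp4 UMIs in all. Mest, an imprinted gene expressed from the paternal allele in the embryo, had 2171 and 2709 UMIs and was seen in 65 of 65 and 98 of 99 cells, so it was as widespread as any rule gene. In single-identity cells Mest had 2444 and 2354 CPM and Fabp4 1225 and 1406 CPM. Gap43 and Gpihbp1, which holds lipoprotein lipase on capillary endothelium, had 209 and 233 CPM and 71.7 and 73.7 CPM. The list further held Gata4, the SOX factor gene Sox7, Bace2, Mmrn2, Flt4, Col13a1, Eml1, Pcdh12 and Gm13889, all with smaller ratios of 8.40 or more.

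Among genes of matrix and of signals to neighbours, matrix genes had high levels. Sparc, a collagen-binding matrix protein, had 1242 CPM in WT and 1067 CPM in KO, and the basement membrane genes Col4a1 and Hspg2 had 316 and 314 CPM and 152 and 150.3 CPM. In single-identity cells Sparc had 2253 and 1852 CPM. The growth factor gene Igf2, which hepatocytes also make, had 260 and 235 CPM, and 188 and 155 CPM in single-identity cells. Bmp2, which in the adult liver signals to hepatocytes to control iron, had 166 and 114 CPM. By contrast Kitl, the ligand of cKIT, had 21.7 and 16.7 CPM and Cxcl12, the chemokine that retains stem cells, 22 and 26 UMIs. Wnt2 had 5 and 7 UMIs, and Rspo1 had 0 in both libraries.

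The share of cells with RNA of proliferation genes was below that of the other cells. At 5000 UMIs per cell, UMIs of both Mki67 and Top2a, which proliferating cells express, were found in 20 of 62 WT cells (32.3%, 20.9 to 45.3) and 39 of 95 KO cells (41.1%, 31.1 to 51.6). The difference of 8.80 percentage points (-7.66 to 24.3) was within counting error, and over female cells, those that had Xist but no Y-linked UMI, it was -0.25. The other cells, without those over 9 C1q UMIs, had 49.1% (47.4 to 50.9) and 53.7% (52.2 to 55.3), and neither interval overlapped that of the endothelial cells of its library. Macrophage-rule cells had 44.9% and 33.9%. The part of free RNA in these shares was not tested. Without thinning the endothelial shares were 52.3% and 63.6%. The summed level of 26 S-phase genes was 2404 CPM in WT and 2427 CPM in KO, and that of 28 G2/M genes 3303 and 3801 CPM, a log2 ratio of 0.20 (0.15 to 0.25), in single-identity cells 0.10 (0.02 to 0.18). In single-identity cells the S-phase sum had a log2 ratio of 0.33 (0.22 to 0.44).

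Within the single-identity cells, those with Mki67 and Top2a were compared with those without, in each library, over 97 genes with 50 UMIs or more. The split was made at 5000 UMIs per cell, in 45 WT and 62 KO cells. The genes compared came from the rule, vascular, signalling and sort-gate lists and from the genes highest above the other cells. The cell cycle genes Cdkn1c and Ccnd2, which are in none of these lists, were added by hand. For 10 genes, Cdkn1c among them, the interval lay below 0 in both libraries, and for 0 it lay above 0 in both. No share over all genes is given for this split, so the counts are a description and not a trait of these genes. Cdkn1c, an inhibitor of the cell cycle, had 299 CPM in WT cells with both and 798 CPM in WT cells without, and 263 and 599 CPM in KO. The water channel gene Aqp1 had 218 and 392 CPM in WT and 181 and 369 CPM in KO. Gja4, an arterial gap junction gene, had 0 UMIs in the 13 WT cells with both and 14 UMIs in the 32 without, and 7 and 55 UMIs in 23 and 39 KO cells. Clec14a, Ramp2, Gpr182, Ctsl, Clec4g, Igf2 and Sparc were lower in the cells with both too. Of these, Gpr182 is a rule gene that helped choose the cells, so its value is a description. As Mki67 and Top2a defined the split, their own levels are no result, and depth differed with it, with medians of 14782 against 12211 UMIs in WT and 14511 against 10356 in KO.

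**Figure D3:**
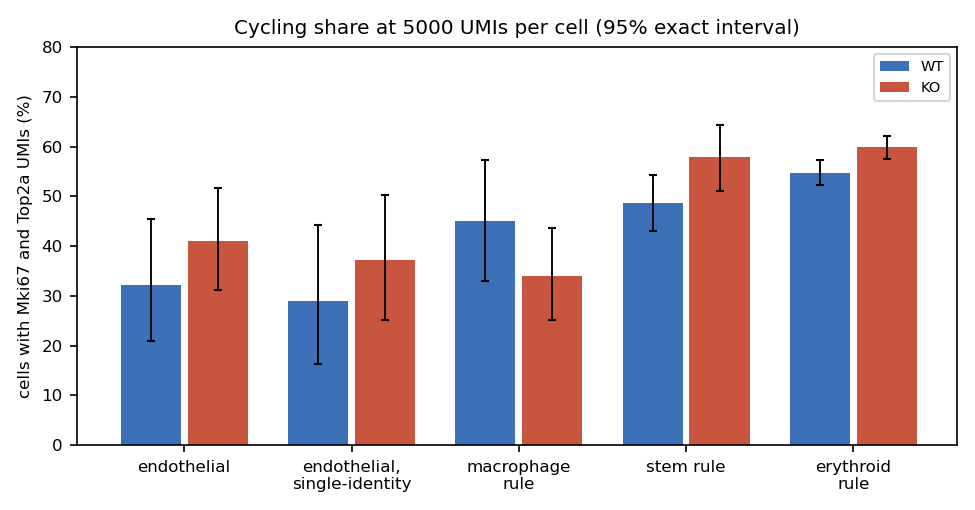
Share of cells with UMIs of both Mki67 and Top2a at 5000 UMIs per cell, bars for WT (blue) and KO (red) with exact 95% intervals. Endothelial cells had 32.3% and 41.1%, and erythroid-rule cells 54.8% and 59.8%.

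Most endothelial genes had a KO/WT ratio below 2-fold. A gene was called where its KO/WT ratio was at least 2-fold with an interval leaving out 0 on the log2 scale, among 9591 genes with 20 UMIs or more. In KO, 151 genes were called higher (1.57%) and 91 lower (0.949%), with a median log2 ratio of 0.03 over all genes. In single-identity cells 116 of 7092 genes were called higher (1.64%) and 79 lower (1.11%). Of the 151 genes, 39 were tested in that set and 16 called higher again, and of the 91 genes 33 were tested and 22 called lower again. A difference between genotypes cannot be told apart from one between the pools. Regardless of size, the interval lay above 0 for 6.61% of the genes and below 0 for 5.15%. Where a KO/WT ratio of the other cells is given, cells over 9 C1q UMIs were left out of it.

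Few genes of the vascular lists were called, beside 1.57% called higher and 0.949% lower over all tested genes. Of 30 tested pan-endothelial genes 0 were called (median log2 ratio -0.05), with 7 intervals below 0 and 0 above, and the list's sum had a log2 ratio of -0.11 (-0.15 to -0.06). Of 21 sinusoidal genes 1 was called, Aass, which was lower (-1.17, -2.07 to -0.31), and in single-identity cells had -1.23 (-3.16 to 0.50). The sinusoidal median was -0.23, with 9 intervals below 0, Aass included, and 0 above. Ehd3 was among the 9 with a log2 ratio of -0.67 (-0.82 to -0.53), as were Bmp2 with -0.55 (-0.81 to -0.28), Gata4 with -0.68 (-1.12 to -0.24), F8 with -0.70 (-1.22 to -0.19) and Maf with -0.40 (-0.55 to -0.25). These 5 genes, each below 2-fold, had -0.66, -0.77, -0.78, -0.91 and -0.58 in single-identity cells. Over other lists, 0 of 14 BMP and TGF-β genes were called (median -0.31, 7 intervals below 0 and 0 above). Of VEGF and Tie genes 0 of 13 were called (median -0.12, 3 below and 0 above). That list includes Kdr, a rule gene that helped choose the cells. Of scavenging and lysosome genes 0 of 24 were called (median -0.04), whereas 1 of 8 arterial genes, Gja4, was called higher.

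The NF-κB lists gave some calls, beside 1.57% called higher and 0.949% lower over all tested genes. Of 25 tested pathway genes, which include Nfkbia, 1 was called higher and 1 lower (median log2 ratio -0.04), and of 18 tested target genes 2 were called higher (median 0.11). Relb, a subunit of the alternative pathway and itself an NF-κB target, had 13 and 35 UMIs, 8.55 and 17.2 CPM, a log2 ratio of 1.01 (0.05 to 2.05). It was 0.55 (-0.51 to 1.69) in single-identity cells. Nfkb1, the p105/p50 subunit, had 34.9 and 59.9 CPM with a log2 ratio of 0.78 (0.31 to 1.28), against -0.18 in the other cells, a difference of 0.96 (0.49 to 1.43). In single-identity cells the Nfkb1 ratio was 0.83 (0.23 to 1.46). Among adhesion targets of inflamed endothelium, Icam1 had 34.9 and 37.3 CPM, Vcam1 40.8 and 43.2 CPM, and Sele 0 UMIs in both. Ltb, a lymphotoxin gene of blood cells and the other target called higher, had 5 and 31 UMIs, and 1.07 (-0.68 to 3.18) in single-identity cells.

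The remaining lists are given beside the shares over all tested genes, 1.57% called higher and 0.949% lower. Interferon genes had 0 called higher and 1 lower of 12, Irf9 with 16 and 8 UMIs, and MHC class I genes 0 of 11. Of the retinoic acid genes, which the study followed in stem cells, 0 of 11 were called. Its receptors were present at low levels, Rara with 13.2 and 20.6 CPM, Rarg with 16.4 and 12.3 CPM, and Rarb with 22 and 30 UMIs, and the other WT cells had 0.22 CPM of Rarb. Genes of blood-forming endothelium gave 3 called higher of 13, Spi1, Itga2b and Spn, and adhesion genes 2 of 20, Itgb3 and Alcam. The adhesion list includes the rule gene Cdh5, which was not called. In single-identity cells Itgb3 and Alcam had negative ratios of -2.39 and -2.71, over few UMIs. Vwf, called higher among the coagulation and venous genes, had 19 and 58 UMIs and a ratio of 0.03 in single-identity cells.

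**Figure D4:**
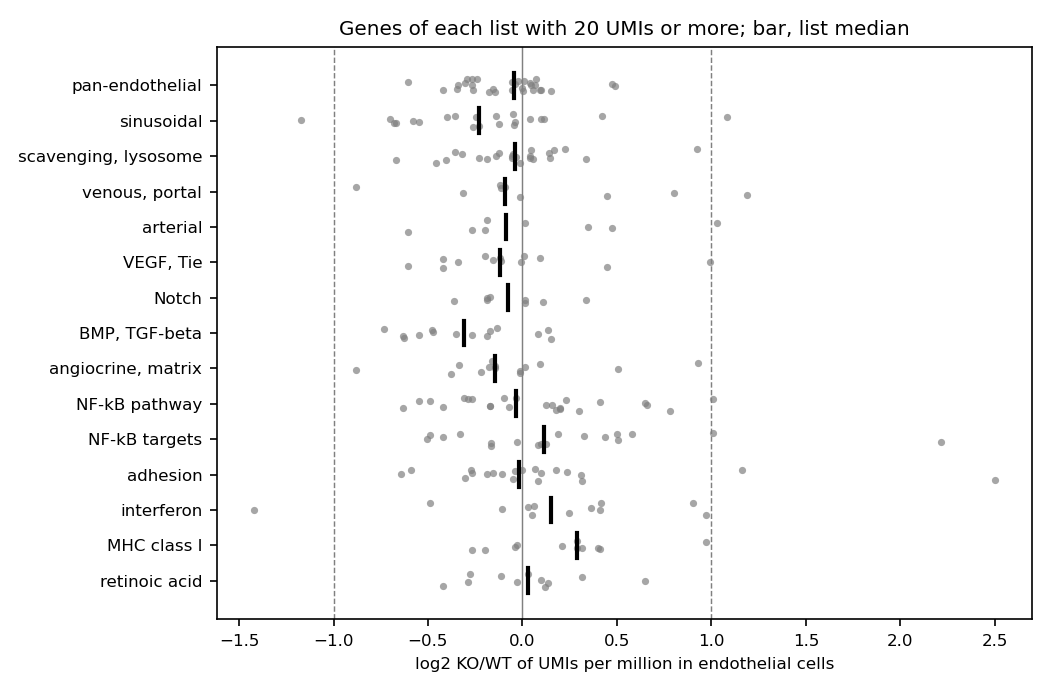
Each dot is a gene of the named list with 20 UMIs or more, placed by its log2 KO/WT ratio in endothelial cells; bars are list medians and dashed lines mark 2-fold. Nfkbia (-6.44) is left off the axis, and the median is -0.23 for sinusoidal, -0.31 for BMP and TGF-β and 0.11 for NF-κB target genes.

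The 20 genes with the largest ratios were taken from 4676 genes with 100 UMIs or more, of which 59 were left out as markers of other cells or as sex-linked, haemoglobin or mitochondrial genes. The top of the list was RNA of few cells. Elane had 198 UMIs in KO, in 5 cells, 1 of which held 98.0% of them, and 1 UMI in WT, and Ctsg, S100a9 and S100a8 had 91.9%, 96.3% and 96.7% of their KO UMIs in 1 cell. Prtn3 (382 UMIs in 19 KO cells) had a log2 ratio of 3.07, and 1.98 without the top cell of each library. These are neutrophil genes, and in single-identity cells Elane had 1.56 and 2.38 CPM. That set was chosen partly by low Elane, Ctsg and Prtn3 counts, so their low levels there are no result. Without the top cells S100a8 turned from 4.24 to -0.42. Serpinb1a had 14 and 98 UMIs, and in single-identity cells 3 and 1 UMIs, 4.66 and 1.19 CPM. Other genes of the 10 were spread over more cells. Rnaset2a, an RNase, had 25.6 and 66.3 CPM in 22 of 65 and 65 of 99 cells, and Asb4, an endothelial ubiquitin ligase subunit, 16.4 and 36.9 CPM in 16 and 30 cells. In single-identity cells they had log2 ratios of 1.27 (0.52 to 2.07) and 1.02 (0.19 to 1.92), and in the other cells 0.75 and 0.17. Tnfaip8 (1.37, 0.75 to 2.03) and Ptpn7 (1.22, 0.59 to 1.88) completed the 10. In single-identity cells Ptpn7 had 0.81 (-0.55 to 2.33) and was not called, and Tnfaip8 had 1 and 18 UMIs.

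Lower in KO were both of the most endothelial genes. Gm14226, on the plus strand of chromosome 2 (155018266 to 155027104, GRCm38), was seen in 49 WT cells with 145 UMIs and in 25 KO cells with 42, a log2 ratio of -2.21 (-2.74 to -1.70) and -2.23 in single-identity cells. All other filtered cells held 16 and 2 Gm14226 UMIs. Gm35533 had 85 UMIs in 36 cells and 44 UMIs in 22 cells, -1.37 (-1.93 to -0.83), and -1.36 in single-identity cells. Adamts1, a secreted protease that limits angiogenesis, had 57.2 and 28.5 CPM, -1.01 (-1.51 to -0.51), and -1.17 (-1.84 to -0.53) in single-identity cells. All other filtered cells held 32 and 19 Adamts1 UMIs. For Lbp (-1.08), AI506816 (-1.09) and Dynlt1f (-1.08) the other cells had like ratios of -1.06, -1.04 and -0.90, and Fam76a had -1.07 against 0.10. AI506816 had 0.78 (-1.06 to 2.94) in single-identity cells, over 4 and 9 UMIs. Serpina1e (-1.37), Mrap (-1.05) and Icam4 (-0.98, under the 2-fold threshold) were high in other cell types, at 522 CPM in hepatocyte-rule and 78.4 and 218 CPM in erythroid-rule WT cells. In single-identity cells Mrap had 0.61 (-1.61 to 3.24) over 3 and 6 UMIs, and Icam4 0.71 (-0.67 to 2.25) over 7 and 15 UMIs. Their direction there is therefore open.

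**Figure D5:**
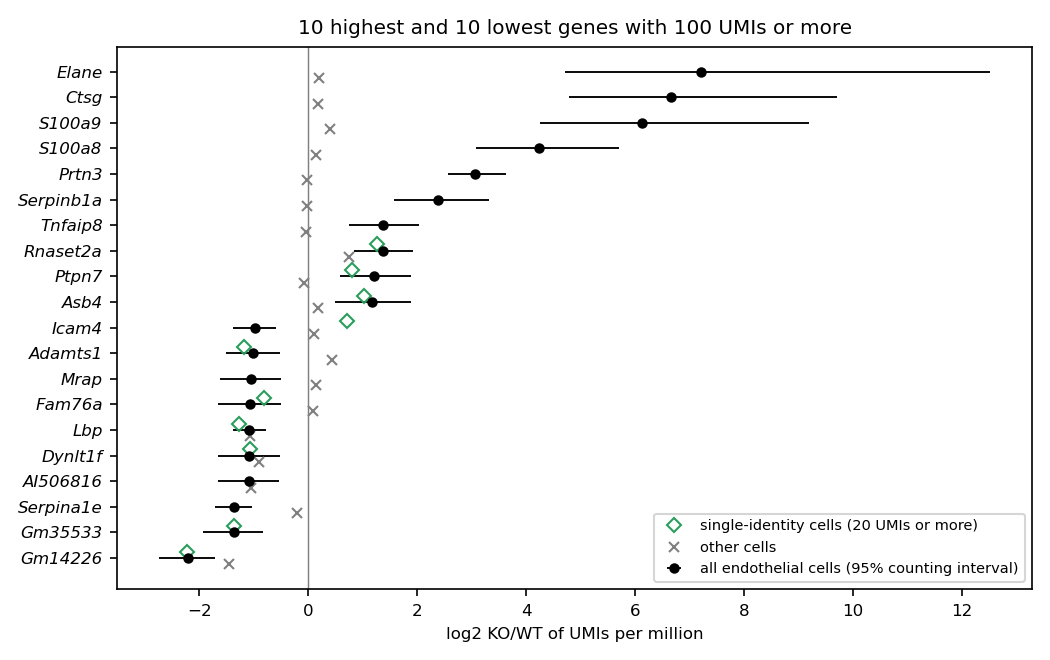
log2 KO/WT ratio of the 10 highest and 10 lowest genes with 100 UMIs or more: dots for all endothelial cells with 95% counting intervals, diamonds for single-identity cells (20 UMIs or more) and crosses for the other cells without those over 9 C1q UMIs. Neutrophil genes lead on the right without diamonds, and Gm14226, Gm35533 and Adamts1 have diamonds within their intervals on the left.

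The genes far above the other cells were also compared between the libraries. The 538 genes that were 8-fold above them include the 7 rule genes and 15 of 16 hepatocyte genes. Of these 538, 5 were called higher and 7 lower in KO, beside 1.57% and 0.949% over all tested genes. Their median log2 ratio was -0.09. In single-identity cells 2 were called higher and 11 lower of 459 tested, beside 1.64% and 1.11% over all genes tested there, and the median was -0.24. Gja4 had 30 UMIs in 15 WT and 82 in 19 KO cells, 1.03 (0.41 to 1.68) and 1.68 (0.86 to 2.60) in single-identity cells. Clec14a, a vessel adhesion receptor, had 251 and 165 CPM, -0.61 (-0.82 to -0.39), and 0.76 and 0.34 CPM in all other filtered cells. Against the other cells without C1q-rich ones, 164 of 9569 genes were called higher in the endothelial ratio (1.71%) and 170 lower (1.78%).

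Markers of other cell types were read alongside. The summed 16 hepatocyte genes made 19254 CPM in WT and 20278 CPM in KO, 14 megakaryocyte genes 358 and 1130 CPM, 15 erythroid genes 14488 and 12526 CPM, 16 blood genes 743 and 1230 CPM, and 16 macrophage genes 235 and 311 CPM. Hepatocyte, megakaryocyte, erythroid and granule genes and Ptprc were used to choose the single-identity cells. Low levels of these markers there are therefore no result, and ratios over them describe what the choice left. In single-identity cells the hepatocyte sum was 872 and 932 CPM and the erythroid sum 1529 and 2733 CPM, so that the erythroid log2 ratio turned from -0.21 to 0.84 (0.73 to 0.95). Blood genes had 334 and 493 CPM there. The KO excess of megakaryocyte genes had a log2 ratio of 1.66 and of -0.46 in single-identity cells. Kit (1.36, 0.54 to 2.26), Spi1 (1.36) and Itga2b (1.54), genes of blood cells, were called higher too, and in single-identity cells had 2.70 (0.63 to 5.86), 1.52 (-0.13 to 3.57) and 0.14 (-0.64 to 0.94). The macrophage sum in single-identity cells was 259.7 and 394 CPM, with Marco called higher over all endothelial cells (12 and 55 UMIs). Their part in other ratios was not tested. The 16 stromal genes summed to 389 and 421.5 CPM, above the 56.6 and 64.5 CPM of all other filtered cells, and to 115 and 71.4 CPM in single-identity cells. Dlk1, which hepatoblasts also express, had 451 and 669 of these UMIs. Dcn had 42 and 36 UMIs, Col3a1 16 and 26, Col1a2 15 and 23, Lum 14 and 28, Acta2 8 and 13, Col1a1 3 and 1 and Pdgfra 2 and 1.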

How the data were processed

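Per the labels and the submitters' processing notes, the authors made 1 single-cell 3′ library per genotype and counted reads with Cell Ranger 6.0.0 on mouse build mm10 (GRCm38). The deposited matrices hold UMI counts per gene and cell, not normalized, for 32285 genes. All columns belonged to the 2 libraries. The filter on cells asked for 1000 or more detected genes and no more than 20% mitochondrial UMIs. Counts of the endothelial cells were summed per library and scaled to 1000000 (CPM), with exact Poisson intervals. KO/WT ratios carry exact conditional binomial intervals, shares exact binomial (Clopper-Pearson) intervals, and differences of shares combine both. Differences from other cells carry delta-method intervals. All are at 95% and cover counting error only. Genes needed 20 UMIs over both libraries to enter a KO/WT comparison. Shares of cells with a UMI were taken after thinning each cell to 5000 UMIs. Doublets were marked, not removed, by Scrublet in scanpy 1.11.5 at an expected rate of 5%. Other classes were set by marker rules, such as the stem, erythroid and macrophage rules. Python 3.11.15, numpy 2.4.6, scipy 1.17.1 and pandas 2.3.3 were used, and the ratio calls were tested on simulated data.

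Named genes were Nfkbia, the rule genes, list members by role with the highest level or called first, the 15 genes highest above the other cells (50 UMIs or more), and the 10 highest and 10 lowest KO/WT ratios (100 UMIs or more). Members and lists were chosen with earlier results of these data known. Alternatives changed the cells (doublets, stricter rule, Ptprc, female cells, gene filter), the scaling, the gene minimum and the thinning. Single-identity cells and leaving out the top cell of each gene were chosen after seeing the data.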

Additional observations from a re-analysis of the deposited data

How the results depend on the processing

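With 1 library per genotype, counting error was the only error that could be given. No paired analysis was possible because the labels pair no samples and a genotype is a single library. Nfkbia stayed lower in KO in every setting that gave a value (-6.46 to -4.08); the stricter rule and leaving out the top cell left 0 KO UMIs and gave none. The share difference ran from 0.11 to 0.40 points, the cycling difference from -0.25 to 13.7 points and the number of 8-fold genes from 423 to 538. Counts of called genes moved by more than 1.5 times in 3 settings. With the mean of CPM per cell, 441 genes were higher and 222 lower, and 397 and 307 against the other cells. With a minimum of 50 UMIs the counts were 58 and 26, and 56 and 75. After thinning, 85 were higher, and 66 and 113 differed from the other cells. The cause was not tested, apart from fewer genes entering under the 50-UMI minimum. The sign turned for S100a8 (-0.17 without Scrublet calls, -0.75 without Ptprc UMIs, -0.42 without the top cell), Fabp4 (-0.0695 without Scrublet calls) and Mrap (1.12 thinned). In single-identity cells it turned for Mrap (0.61), AI506816 (0.78), Icam4 (0.71) and Serpinb1a (-1.97). These rest on few UMIs, and each interval lay on both sides of 0. Over the settings Rara (-0.62 to 0.96), Rarg (-0.63 to 0.38), Rarb (-0.33 to 0.52), Vcam1 (-0.43 to 0.17), Pecam1 and Cldn5 lay on both sides of 0. Medians of retinoic acid (-0.2 to 0.16), coagulation (-0.21 to 0.11) and NF-κB pathway genes (-0.06 to 0.17) did so too. The same held for medians of adhesion, arterial, Notch, S-phase and scavenging genes. List medians turned for hepatocyte genes without Scrublet calls (-0.0254), erythroid genes with the mean of CPM per cell (0.31), after thinning (0.31) and in single-identity cells (0.72), stromal genes at 50 UMIs (-0.25) and in single-identity cells (-1.35), interferon genes after thinning (-0.21) and in single-identity cells (-0.0164), sort-gate (-0.28) and megakaryocyte genes (-0.0125) in single-identity cells, and angiocrine genes without the top cell (0.0078).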

Other observations

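The cells left out for C1q differed from the endothelial cells described above. The 11 WT and 7 KO cells had medians of 18 and 35 C1q UMIs and 43894 and 11746 UMIs in all, and Scrublet marked 5 and 2 of them. Pecam1 stood at 35.9 and 88.0 CPM in them, Fcer1g, an Fc receptor chain of macrophages, at 367 and 639 CPM, and Marco, a scavenger receptor of macrophages, at 198 and 496 CPM. RNA of both cell types was thus present in these cells.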
